A study of Homo sapiens with 11 samples.

Results

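The 11 RNA-seq libraries of a 2 by 2 design were used to ask for which genes the response of HEK293T cells to the compound A8 depended on ISRIB. HEK293T cells descend from human embryonic kidney and express the large T antigen of SV40. The 4 groups were vehicle (DMSO, n = 3), vehicle with ISRIB (n = 2), 10 µM A8 (n = 3) and 10 µM A8 with ISRIB (n = 3) in that line, which the growth protocol calls HEK293. The sample titles give 8 h of treatment and the treatment protocol 4 h, the dose of ISRIB is not given in the labels, and a second replicate of vehicle with ISRIB was left out by the submitters for quality. All 11 of the 11 libraries entered the comparison, which covered 15591 genes with enough counts.

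The integrated stress response starts when kinases phosphorylate the translation factor eIF2, which then inhibits its exchange factor eIF2B and slows the start of protein synthesis. The mRNA of the transcription factor ATF4 escapes this block, and ATF4 induces genes for amino acid synthesis, amino acid uptake and tRNA charging. ISRIB binds eIF2B and keeps it active when eIF2 is phosphorylated, so it blunts the steps downstream of eIF2. The series title links A8 to RIG-I, a cytosolic sensor of viral RNA, and to this response.

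The quantity reported throughout is the interaction, that is, the log2 fold change of A8 with ISRIB against ISRIB alone, minus the log2 fold change of A8 against vehicle. An interaction below 0 means that the A8 response was lower in the presence of ISRIB, and one above 0 that it was higher. The standard error (SE), the 95% confidence interval and the Benjamini-Hochberg adjusted p come from edgeR's quasi-likelihood test over all genes, and a gene counts as called when its adjusted p is below 0.05. Levels are CPM, that is, counts relative to the TMM-scaled size of each library. To show how far single libraries could carry a value, the interaction was also computed for each of the 54 combinations that take 1 library from each group.

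The libraries held 34072107 to 35318111 counts and 17892 to 18017 detected genes each. Of the fixed markers of the HEK293 line, VIM, NEFL, NEFM, CDH2 and SALL2 had at least 2100 counts in every library, and their list summed to 1014 to 1148 CPM. PTPRC, CD3E, PECAM1, KRT5, INS and HBB, which define blood, endothelial, basal epithelial, islet and red blood cells, had 0 counts in all 11 libraries, where 3 counts correspond to 0.0849 to 0.0880 CPM. The whole list of 18 markers of other cell types summed to 25.6 to 31.0 CPM in every library, most of it from COL1A1. The third library of A8 with ISRIB stood apart on the first principal component (26.1% of the variance), so values without it are given where a result rests on it. In bulk cultures, fewer cells and less RNA per cell cannot be told apart.

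The A8 response of 4 genes differed with ISRIB by the adjusted test, 2 in each direction. PSAT1 and SLC6A9, genes of serine synthesis and glycine transport, had a lower A8 response in the presence of ISRIB, and the near-identical heat shock genes HSPA1A and HSPA1B had a higher one. Among all 15591 genes tested, the share called lower was 0.0128% and the share called higher was 0.0128%. At an unadjusted p under 0.05 the shares were 3.44% lower (536 genes) and 5.04% higher (786 genes), and all 54 library combinations lay below 0 for 3.22% of genes and above 0 for 3.89%. The interaction is a difference of 4 group means, and its median SE over genes was 0.17 on the log2 scale.

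PSAT1 encodes phosphoserine aminotransferase, the middle enzyme of serine synthesis. It stood at 89.4, 97.3 and 97.2 CPM in the vehicle libraries, 81.9 and 84.9 CPM with ISRIB alone, 144, 135 and 130.3 CPM with A8, and 77.5, 79.2 and 77.7 CPM with A8 and ISRIB. Its A8 libraries lay above all others, and the 3 libraries with both compounds lay below those with ISRIB alone. The interaction was -0.62 (SE 0.09, 95% interval -0.81 to -0.43, edgeR adjusted p = 0.0243), made up of an A8 effect of 0.53 without and -0.09 with ISRIB. Over the 54 library combinations it ran from -0.81 to -0.47. In CPM the difference of differences was -46.9 (SE 4.96).

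SLC6A9 encodes the glycine transporter GLYT1. It stood at 25.5, 29.3 and 31.4 CPM in the vehicle libraries, 15.9 and 17.8 CPM with ISRIB alone, 65.8, 55.1 and 50.1 CPM with A8, and 16.8, 18.0 and 17.2 CPM with A8 and ISRIB. ISRIB libraries lay below vehicle whether or not A8 was present, and the A8 libraries without ISRIB lay above all others. The interaction was -0.95 (SE 0.15, 95% interval -1.28 to -0.62, edgeR adjusted p = 0.0443), from an A8 effect of 0.99 without and 0.04 with ISRIB. The 54 combinations ran from -1.45 to -0.50, and the difference of differences in CPM was -27.8 (SE 5.03).

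HSPA1A and HSPA1B encode the inducible HSP70 chaperone and differ at few positions, so reads could be divided between them in a way that the deposited counts do not show. HSPA1A stood at 2144, 2049.8 and 2078 CPM in the vehicle libraries, 2212 and 2088 CPM with ISRIB alone, 1350.4, 1392 and 1532 CPM with A8, and 2257, 2329 and 2196 CPM with A8 and ISRIB. HSPA1B stood at 2784, 2672 and 2656 CPM in the vehicle libraries, 2837 and 2705 CPM with ISRIB alone, 1774, 1786 and 1979 CPM with A8, and 2904, 3057 and 2872 CPM with A8 and ISRIB. For both genes the 3 A8 libraries without ISRIB lay below all 8 others. The interaction of HSPA1A was 0.63 (SE 0.09, 95% interval 0.43 to 0.83, edgeR adjusted p = 0.0243), from an A8 effect of -0.55 without and 0.07 with ISRIB. That of HSPA1B was 0.64 (SE 0.09, 95% interval 0.44 to 0.84, edgeR adjusted p = 0.0243), from -0.55 without and 0.09 with ISRIB. With the counts of both genes summed, the interaction was 0.63 (SE 0.10, edgeR adjusted p = 0.0413).

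The 4 calls were sensitive to single libraries, while the values moved little. With each library left out in turn, PSAT1 ran from -0.66 to -0.58, SLC6A9 from -1.04 to -0.83, HSPA1A from 0.58 to 0.68 and HSPA1B from 0.60 to 0.69. All 4 stayed called without the third vehicle library, the third A8 library or the third library of A8 with ISRIB. Without the first vehicle library PSAT1 alone stayed called. None of the 4 stayed called without the second vehicle library, either library of vehicle with ISRIB (a or b), the first or second A8 library, or the first or second library of A8 with ISRIB. The adjusted p over these 11 fits ran from 0.0159 to 0.356 for PSAT1, from 0.0241 to 0.486 for SLC6A9, and from 0.00673 to 0.356 for both HSPA1A and HSPA1B.

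**Figure D1:**
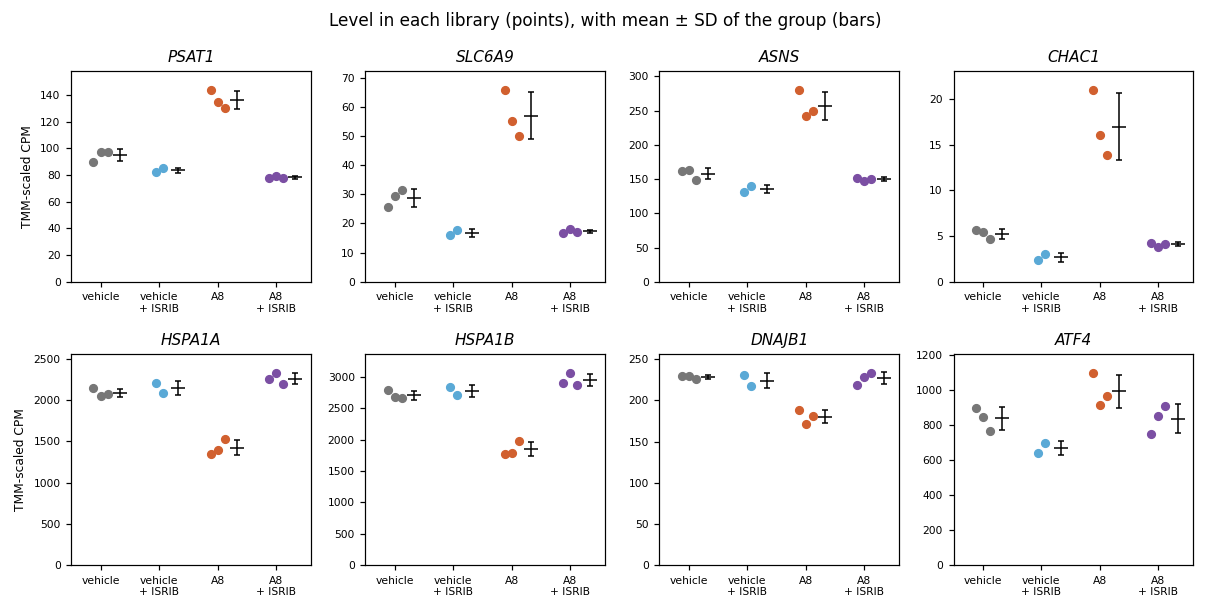
Levels in TMM-scaled CPM (y axis, from 0) of 8 genes in the 11 libraries, by group (x axis). Points are libraries and bars are the group mean ± SD. PSAT1, SLC6A9, ASNS and CHAC1 are highest in the A8 libraries without ISRIB, HSPA1A, HSPA1B and DNAJB1 are lowest there, and ATF4 has an interaction of 0.08 with an interval that spans 0.

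**Figure D2:**
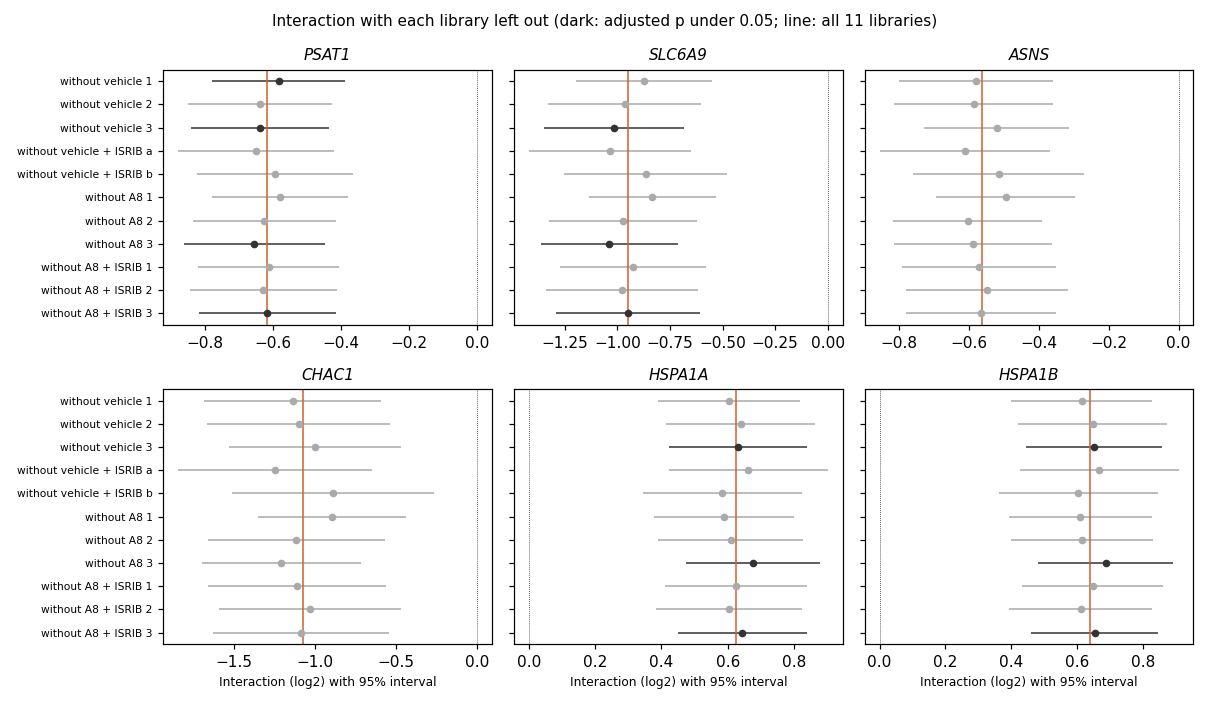
Interaction on the log2 scale (x axis) with its 95% interval for 6 genes with each library left out in turn (y axis). Dark points have an adjusted p under 0.05, the solid line marks the value with all 11 libraries and the dotted line 0. The intervals of all 6 genes stay on one side of 0 in all 11 fits, while the adjusted p of PSAT1 is under 0.05 in 4 and that of ASNS in 0 of them.

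Beyond the calls, the 12 genes with the smallest p in the lower direction were described (PSAT1, SLC6A9 and 10 uncalled genes whose mean log2 CPM was 2 or more). Of the 12, 8 belong to the lists of the integrated stress response. ASNS, asparagine synthetase, stood at 161, 163 and 149 CPM in the vehicle libraries, 131 and 140.0 CPM with ISRIB alone, 280.2, 242 and 249 CPM with A8, and 152, 147 and 150.5 CPM with A8 and ISRIB, with an interaction of -0.56 (SE 0.10, edgeR adjusted p = 0.0766). Its A8 libraries without ISRIB lay above all others, and the rest lay between 131 and 163 CPM. CTH, which makes cysteine from cystathionine, had an interaction of -0.81 (SE 0.18), with A8 effects of 0.85 without and 0.04 with ISRIB. MTHFD2, a mitochondrial folate enzyme, had -0.43 (SE 0.09), with 0.44 without and 0.02 with ISRIB. For these 3 genes the A8 libraries without ISRIB did not overlap the libraries of any other group. They were picked by a small p in the same libraries, and the share of all genes with such a separation was not computed. That share is likewise missing for every other gene whose libraries are said here to stand apart.

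CHAC1 encodes an enzyme that breaks down glutathione and is induced through ATF4 and CHOP. It stood at 5.62, 5.40 and 4.64 CPM in the vehicle libraries, 2.34 and 2.99 CPM with ISRIB alone, 21.0, 16.04 and 13.8 CPM with A8, and 4.29, 3.86 and 4.16 CPM with A8 and ISRIB. Its interaction was the lowest of the 12 at -1.08 (SE 0.24, edgeR adjusted p = 0.241), and its A8 effect was 1.70 without and 0.62 with ISRIB. The 3 libraries with both compounds lay above both ISRIB libraries and below all vehicle libraries. PCK2, mitochondrial phosphoenolpyruvate carboxykinase, had an interaction of -0.65 (SE 0.16), and CARS, the cysteinyl-tRNA synthetase, one of -0.47 (SE 0.10).

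The other 4 of the 12 are on none of these lists. They were DMTF1, a Myb-like transcription factor, at -0.36 (SE 0.09), GPX8, an endoplasmic reticulum peroxidase, at -0.65 (SE 0.16), EAPP, an E2F-binding phosphoprotein, at -0.47 (SE 0.12), and IFRD1, a transcriptional co-regulator, at -0.48 (SE 0.13). DMTF1 stood at 49.5, 47.9 and 50.2 CPM in the vehicle libraries, 54.1 and 54.5 CPM with ISRIB alone, 51.4, 53.7 and 53.3 CPM with A8, and 45.2, 44.4 and 46.2 CPM with A8 and ISRIB. Here the libraries with both compounds were the lowest and the 2 libraries with ISRIB alone the highest, unlike PSAT1, where the A8 libraries without ISRIB stood apart. The adjusted p of the 10 uncalled genes ran from 0.0766 to 0.350.

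The 65 members of 4 lists of the integrated stress response were all tested, and 53 of them had an interaction below 0, against 51.8% of all genes. The median over the members was -0.20, from a median A8 effect of 0.28 without and 0.06 with ISRIB, while the median interaction of all genes was -0.01. At an unadjusted p under 0.05, 26 members (40%) were lower and 1 was higher, against 3.44% and 5.04% of all genes, and for 23 members all 54 library combinations lay below 0, against 3.22%. By edgeR's adjusted test 2 of the 65 were called lower, against 0.0128% of all genes. The DESeq2 Wald test, which called more genes in both directions, called 8 of the 65 lower. Of the 15591 genes entered it called 8 lower and 28 higher. It gave no adjusted p for some genes of low level, DDX58 and NUPR1 among them. Its adjustment therefore covered fewer genes than that of edgeR. These lists were chosen with earlier results of the same libraries known, so their counts are a description and not independent evidence of a direction.

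Amino acid and one-carbon synthesis was the list with the lowest median, -0.31, with 13 of 15 members below 0 and 8 at an unadjusted p under 0.05. Beside PSAT1, ASNS, CTH, MTHFD2 and PCK2, PSPH, the last enzyme of serine synthesis, had -0.49 (SE 0.18), ALDH1L2, a mitochondrial folate dehydrogenase, -0.50 (SE 0.17), and GPT2, which makes alanine, -0.31 (SE 0.10). Amino acid transport had 11 of 11 members below 0, with a median of -0.26 and 3 members at an unadjusted p under 0.05. Those were SLC6A9, SLC1A4, a neutral amino acid carrier, at -0.64 (SE 0.22), and SLC7A5, the LAT1 large neutral amino acid exchanger, at -0.39 (SE 0.14). SLC7A11, the cystine importer, had -0.41 with an SE of 0.37, and its 54 combinations ran from -2.10 to 0.81.

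The cytosolic tRNA synthetases, which load amino acids onto tRNAs, had 17 of 18 members below 0, a median of -0.17 and 8 members at an unadjusted p under 0.05. After CARS the smallest p was that of NARS, the asparaginyl-tRNA synthetase, at -0.32 (SE 0.09), and the exception in sign was VARS at 0.18 (SE 0.09). NARS stood at 95.5, 99.1 and 94.8 CPM in the vehicle libraries, 98.4 and 109 CPM with ISRIB alone, 105, 109 and 118 CPM with A8, and 95.2, 94.8 and 94.6 CPM with A8 and ISRIB. The libraries with both compounds lay at the lower edge of the vehicle libraries and below both libraries with ISRIB alone, while the A8 libraries without ISRIB lay above vehicle.

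Regulators and effectors of the response were the most mixed of the 4 lists, with 12 of 21 members below 0, a median of -0.15, and 7 members lower and 1 higher at an unadjusted p under 0.05. ATF4 itself stood at 897, 846 and 765 CPM in the vehicle libraries, 638 and 696 CPM with ISRIB alone, 1094, 914 and 963 CPM with A8, and 746, 852 and 908 CPM with A8 and ISRIB. The A8 libraries lay above vehicle and the libraries with both compounds lay above those with ISRIB alone, so both A8 effects pointed the same way. Its interaction was 0.08 (SE 0.13, 95% interval -0.19 to 0.35). DDIT3, which encodes CHOP, had -0.15 (95% interval -0.55 to 0.25), TRIB3, a pseudokinase that restrains the response, -0.12 (-0.44 to 0.21), and PPP1R15A, the stress-induced subunit that directs eIF2 dephosphorylation, 0.07 (-0.24 to 0.38). All 4 intervals span 0, and none of them reaches the values of PSAT1 or HSPA1A.

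Other effectors had values below 0 without a call. SESN2, an inhibitor of mTORC1 signalling, had -0.40 (SE 0.11) and stood at 88.0, 84.4 and 83.9 CPM in the vehicle libraries, 65.0 and 64.2 CPM with ISRIB alone, 143, 130.4 and 123 CPM with A8, and 83.1, 75.2 and 68.6 CPM with A8 and ISRIB. Its A8 libraries without ISRIB lay well above all others. DDIT4, another brake on mTORC1, had -0.44 (SE 0.20), STC2, a secreted glycoprotein, -0.40 (SE 0.13), ATF3, a stress transcription factor, -0.37 (SE 0.19), and JDP2, a bZIP repressor, -0.96 (SE 0.26). The member at an unadjusted p under 0.05 in the higher direction was ATF5, a bZIP factor related to ATF4, at 0.42 (SE 0.14). ATF5, PSPH, ALDH1L2, GPT2, SLC7A5 and VARS were named after their values were seen.

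NUPR1, a stress-induced chromatin protein, shows how the scale of the comparison matters. It stood at 1.11, 1.21 and 0.683 CPM in the vehicle libraries, 0.404 and 0.252 CPM with ISRIB alone, 2.97, 2.82 and 2.12 CPM with A8, and 0.781, 1.11 and 0.845 CPM with A8 and ISRIB. The A8 effect was 1.39 without and 1.47 with ISRIB on the log2 scale, an interaction of 0.08 (SE 0.44). The libraries with ISRIB lay below those without it both with A8 and, for the vehicle groups, without A8. In CPM the difference of differences was -1.05 (SE 0.333), below 0. It was the only one of 80 genes named by the rules whose sign differed between the log2 and the linear scale.

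**Figure D3:**
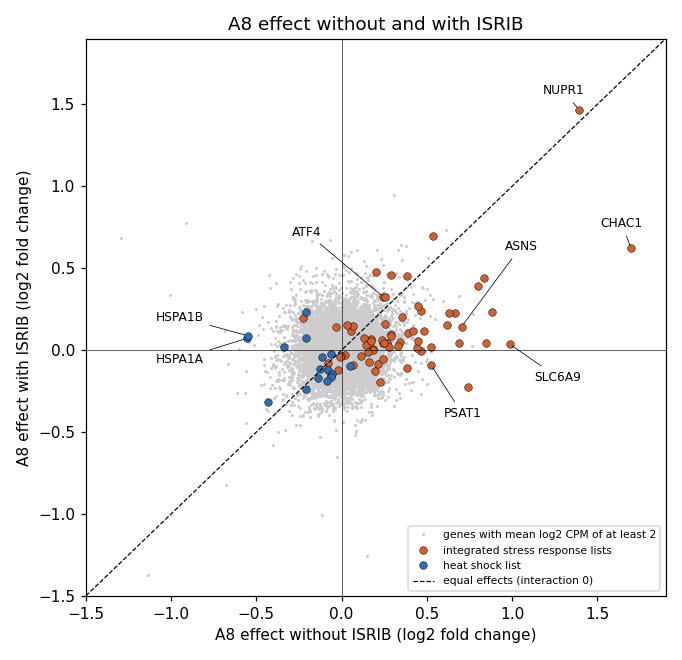
A8 effect without ISRIB (x axis) against A8 effect with ISRIB (y axis), both as log2 fold changes, for genes whose mean log2 CPM was 2 or more (grey) and for the lists of the integrated stress response (orange) and heat shock (blue). The dashed line marks equal effects. SLC6A9 (0.99 against 0.04) and PSAT1 (0.53 against -0.09) lie below the line, HSPA1A and HSPA1B above it and NUPR1 near it.

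ATF4 acts through CARE, a composite C/EBP and ATF element, and the heat shock factor HSF1 through the heat shock element. Promoters of the members were searched on both strands for CARE, written TGATGNAA, and for a core heat shock element, GAANNTTC, in RefSeq windows of 250 bases before to 50 bases after the start site (build GRCh38.p14; where a symbol had several windows, the first was used). CARE was present in 15 of the 52 promoters found for the 65 members (28.85%) and in 3.62% of all 35116 promoters. The core heat shock element was present in 6 of the 17 heat shock promoters (35.3%) and in 6.77% of all promoters. The lists were made of known members of the 2 responses, so these shares describe the lists and not the interaction. The share of all promoters counts every window, including several of the same symbol. For ASNS the 2 motifs overlap. The windows of PSAT1, SLC6A9, CTH, MTHFD2 and PCK2 held no letters that match CARE, and that of DNAJB1 none that match the core heat shock element. Of the members with CARE, PPP1R15B and FGF21 had interactions above 0, at 0.06 and 0.16, and the rest lay below 0. Most members lay below 0 whether or not they had CARE, 53 of all 65, so the match does not set them apart. Of the heat shock members with the core element, DNAJA1 and CHORDC1 had -0.03 each, and the rest lay above 0. A longer form of the element, the core with a further unit (13 bases in all), was searched as well. It was present in 3 of the 17 heat shock promoters (17.65%) and in 0.49% of all promoters. Those 3 were HSPA8, at 0.12, and DNAJA1 and CHORDC1, at -0.03 each. The windows of HSPA1A, HSPA1B, HSPB1 and DNAJB1 held no match to the longer form. PPP1R15B, FGF21, DNAJA1 and CHORDC1 were named after their values were seen. The stretches below set genes with an interaction far from 0 beside genes of the same lists nearer to 0, each has its match in capitals, and each reads 5′ to 3′ along the gene's strand.
ASNS: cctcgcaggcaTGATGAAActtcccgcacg
CHAC1: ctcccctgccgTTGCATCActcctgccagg
ATF3: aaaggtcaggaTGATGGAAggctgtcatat
MTHFD1L: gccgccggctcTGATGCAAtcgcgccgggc
AARS: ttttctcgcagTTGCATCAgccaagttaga
HSPA1A: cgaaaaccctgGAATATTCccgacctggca
HSPA1B: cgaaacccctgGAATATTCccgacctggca
HSPB1: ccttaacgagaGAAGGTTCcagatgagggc
HSPA8: ggccccttctgGAAGGTTCtaagatagggt
These stretches lie at chr7:97872458-97872487 on the minus strand (ASNS), chr15:40953251-40953280 on the plus strand (CHAC1), chr1:212565205-212565234 on the plus strand (ATF3), chr6:150866346-150866375 on the plus strand (MTHFD1L, a mitochondrial folate enzyme) and chr16:70289675-70289704 on the minus strand (AARS, the alanyl-tRNA synthetase). Those of the heat shock genes lie at chr6:31815426-31815455 on the plus strand (HSPA1A), chr6:31827622-31827651 on the plus strand (HSPA1B), chr7:76302480-76302509 on the plus strand (HSPB1) and chr11:123062168-123062197 on the minus strand (HSPA8). The CARE match of CHAC1 and of AARS lies on the opposite strand. MTHFD1L had an interaction of -0.19 and AARS one of -0.10. HSPA1A and HSPA1B carry the same core, starting 106 and 105 bases before their start sites, and of the 2 matches in the promoter of HSPA8 the one shown starts 50 bases before.

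The heat shock list as a whole centred near 0. All 17 members were tested, 8 lay below 0, and the median was 0.01, close to the -0.01 of all genes. At an unadjusted p under 0.05, 5 members (29.4%) were higher, against 5.04% of all genes, and 0 were lower. Beside the 2 called genes these were DNAJB1, the main HSP40 partner of HSP70, at 0.36 (SE 0.08, edgeR adjusted p = 0.267), HSPB1, the small heat shock protein HSP27, at 0.44 (SE 0.15), and BAG3, an HSP70 co-chaperone, at 0.28 (SE 0.10). With the trend across the GC content of transcripts removed, 3 members were higher at that threshold and HSPB1 stood at 0.23 and BAG3 at 0.17. The list median was then 0.10, with 3 of 17 members below 0. That move was smaller than the median SE of single members, 0.098, and its cause was not tested. The DESeq2 Wald test called DNAJB1 as well. HSPB1 and BAG3 were named after their values were seen.

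DNAJB1 stood at 229.7, 229 and 226 CPM in the vehicle libraries, 230.3 and 217 CPM with ISRIB alone, 188, 172 and 181 CPM with A8, and 219, 228 and 233 CPM with A8 and ISRIB. As for HSPA1A, the A8 libraries without ISRIB lay below all others. HSPA8, the constitutive cytosolic HSP70, stood at 3733, 3882 and 3825 CPM in the vehicle libraries, 4053 and 3920.3 CPM with ISRIB alone, 2631, 2781 and 3061 CPM with A8, and 3079, 3069 and 3472 CPM with A8 and ISRIB. Its libraries with A8 lay below those without it whether or not ISRIB was present, and its interaction was 0.12 (95% interval -0.10 to 0.34). HSPA5, the endoplasmic reticulum HSP70, had -0.06 (95% interval -0.27 to 0.15).

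**Figure D4:**
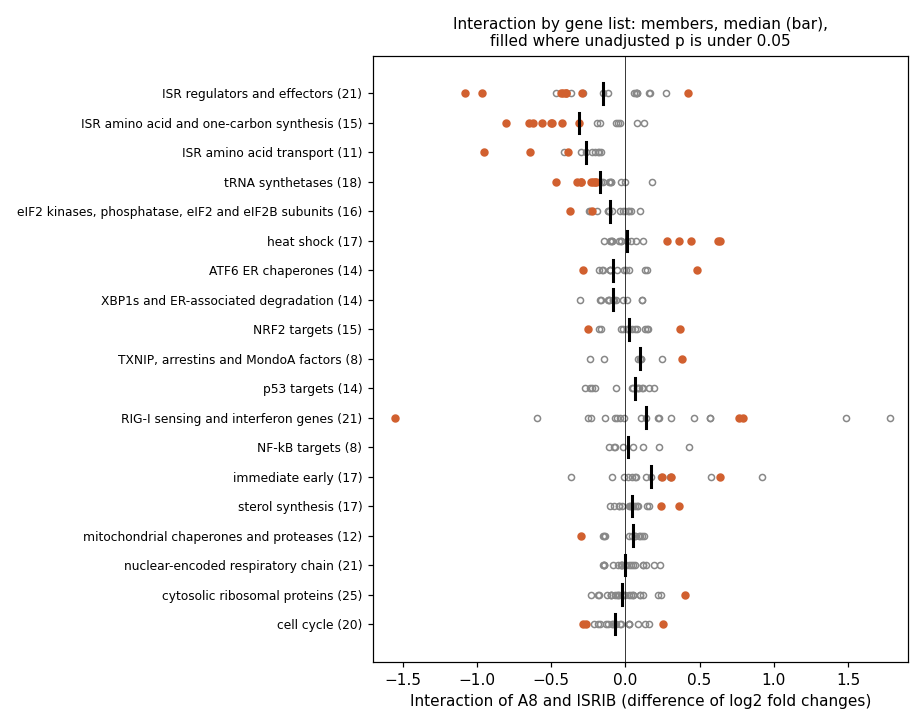
Interaction on the log2 scale (x axis) of the tested members of 19 gene lists (y axis, number tested in parentheses). Points are genes, filled where the unadjusted p is under 0.05, and bars are medians. The 4 lists of the integrated stress response have medians from -0.31 to -0.15, and the heat shock list has a median of 0.01 with 5 filled points to the right.

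Of the 12 genes with the smallest p in the higher direction, 10 were neither heat shock genes nor called. MYPOP, a Myb-related transcription factor, stood at 44.2, 41.3 and 38.4 CPM in the vehicle libraries, 33.5 and 30.7 CPM with ISRIB alone, 35.7, 36.0 and 34.3 CPM with A8, and 41.0, 46.5 and 41.9 CPM with A8 and ISRIB, with an interaction of 0.65 (SE 0.12, edgeR adjusted p = 0.0866). Its libraries with ISRIB alone were the lowest, and those with both compounds overlapped vehicle. ZNF703, a zinc finger repressor, stood at 438, 444 and 455 CPM in the vehicle libraries, 389.8 and 383 CPM with ISRIB alone, 419.6, 434 and 413 CPM with A8, and 502, 498 and 474 CPM with A8 and ISRIB, with an interaction of 0.43 (SE 0.08). Here the 3 libraries with both compounds lay above all others and the 2 with ISRIB alone below. The rest were SF3A2, a subunit of the U2 snRNP, at 0.48, PDXP, a pyridoxal phosphatase, at 0.54, SH2B2, a signalling adaptor, at 0.82, PWWP2B, a chromatin reader, at 0.72, SIX2, a homeobox factor, at 0.52, and PPDPF, BRI3BP and FBRSL1 at 0.48, 0.56 and 0.36. Their adjusted p, with those of MYPOP and ZNF703, ran from 0.0866 to 0.241 in edgeR, while the DESeq2 Wald test called all 10.

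The interaction moved with the GC content of transcripts over the whole transcriptome. Across 10151 genes whose mean log2 CPM was 2 or more, Spearman's rho between GC content and the interaction was 0.60, a correlation across genes, which share the same libraries and are not independent. The median interaction ran from -0.13 in the decile with the lowest GC content to 0.21 in the decile with the highest. Each library's deviation from the mean over all 11 libraries had a rho with GC content of -0.03 to 0.57 in vehicle, -0.54 and -0.28 in vehicle with ISRIB, -0.26 to 0.18 in A8 and -0.17 to 0.29 in A8 with ISRIB, so that libraries of 1 group differed in it. The 12 lower genes had a median GC content of 44.0% and the 12 higher genes one of 64.2%, against 49.9% over all these genes.

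With the GC trend removed from the interaction, the named genes differed in how far they moved. All 12 lower genes remained below 0 and none of them lost over 50% of its value, and all 12 higher genes remained above 0. SLC6A9, at 60.9% GC, went to -1.08 (edgeR adjusted p = 0.0423) and was then the single gene called, CHAC1, at 61.8% GC, went to -1.23, and PSAT1, at 44.1% GC, to -0.53 (adjusted p = 0.128). HSPA1A and HSPA1B went to 0.52 and 0.54, with adjusted p of 0.155 and 0.128. Among the 12 higher genes, 3 lost over 50% of their value, and FBRSL1 went to 0.08 and PPDPF to 0.18, while BRI3BP, at 45.9% GC, stood at 0.63. ATF5 went to 0.26 and DDIT4 to -0.66. The median of the stress response members was -0.18, with 28 of 65 lower at an unadjusted p under 0.05, and that of the heat shock list was 0.10. The adjusted p over all other settings with a test ran from 2.47e-05 to 0.337 for SLC6A9 and from 8.56e-07 to 0.237 for PSAT1.

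**Figure D5:**
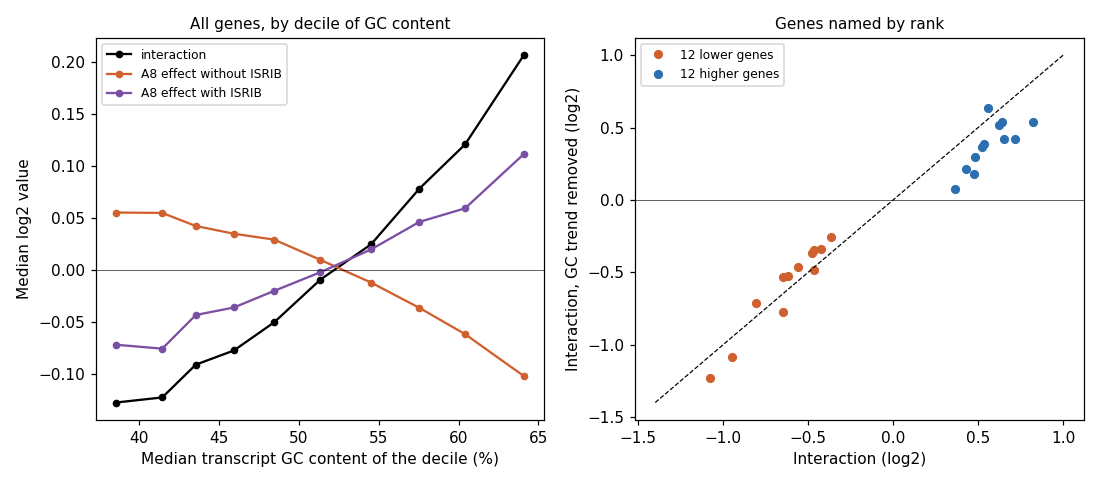
Left, median interaction and median A8 effects without and with ISRIB (log2, y axis) by decile of transcript GC content (x axis, %), with the interaction running from -0.13 to 0.21. Right, interaction of the 12 lower and 12 higher genes (x axis) against the value with the GC trend removed (y axis), with the dashed line at equality. The lower genes stay below 0 and the higher genes above 0.

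The list around eIF2, which includes the subunits of eIF2B that ISRIB binds, showed small values. It held 16 genes: eIF2 kinases, phosphatase subunits, subunits of eIF2 and eIF2B, and EIF2A. Of these, 12 lay below 0, with a median of -0.10. At an unadjusted p under 0.05, 2 were lower, against 3.44% of all genes, and neither encodes a subunit of eIF2B. The 2 were EIF2S2, the beta subunit of eIF2, at -0.38 (SE 0.12), and EIF2A, an alternative initiation factor, at -0.22 (SE 0.09). EIF2AK3, the kinase PERK, had -0.24 (95% interval -0.58 to 0.10), EIF2AK4, the amino acid sensor GCN2, -0.11 (-0.37 to 0.14), and EIF2B5, the catalytic subunit of eIF2B, 0.04 (-0.16 to 0.23). The list had a median GC content of 44.7%, and with the GC trend removed its median was -0.03, with 1 member lower at that threshold. EIF2A then stood at -0.09, EIF2AK3 at -0.14 and EIF2AK4 at -0.02.

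Endoplasmic reticulum lists had medians of -0.08 (14 chaperones of the ATF6 arm) and -0.09 (14 genes of the XBP1 arm and of protein degradation). At an unadjusted p under 0.05 they had 2 and 0 members, against 8.48% of all genes. The 2 moved in opposite directions in value: SDF2L1, a chaperone cofactor, had 0.48 (SE 0.13) and DNAJB11, an HSP40 of the reticulum, -0.29 (SE 0.11), which became 0.24 and -0.18 with the GC trend removed. Of 17 immediate early genes, 14 lay above 0 with a median of 0.17, while 51.8% of all genes lay below 0. At an unadjusted p under 0.05, 3 were higher, against 5.04% of all genes. They were JUNB at 0.64 (SE 0.15), JUN at 0.24 (SE 0.10) and JUND at 0.30 (SE 0.14). That list had a median GC content of 58.4%, and its median was 0.08 with the GC trend removed, when JUNB alone was at that threshold, at 0.42, and JUND stood at -0.0048. The DESeq2 Wald test called JUNB. JUND was named after its value was seen.

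RIG-I is encoded by DDX58, which stood at 1.85, 1.97 and 2.93 CPM in the vehicle libraries, 2.97 and 2.13 CPM with ISRIB alone, 2.80, 3.40 and 3.50 CPM with A8, and 2.09, 2.89 and 2.29 CPM with A8 and ISRIB. The groups overlapped, and the interaction was -0.59 (SE 0.32, 95% interval -1.26 to 0.08). Of 34 genes of RIG-I sensing and interferon response, 21 passed the filter on low counts. At an unadjusted p under 0.05, 1 was lower and 2 were higher, against 3.44% and 5.04% of all genes. The lower one was IFIH1, the sensor MDA5, at -1.55 (SE 0.62), with levels under 1 CPM in every library. The higher ones were IFI6, an interferon-induced mitochondrial protein, at 0.76 (SE 0.31), and TMEM173, the adaptor STING, at 0.79 (SE 0.37), named after its value was seen. IFIT1, an interferon-induced RNA-binding protein, had -0.01 (95% interval -0.65 to 0.63). For DDX58 and IFIT1 an interaction of the size found for PSAT1 lay within the interval, so a difference of that size is not excluded.

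The A8 effect on TXNIP, an arrestin that limits glucose uptake and is driven by MondoA, did not differ detectably with ISRIB. TXNIP stood at 9.10, 10.4 and 8.97 CPM in the vehicle libraries, 9.39 and 10.5 CPM with ISRIB alone, 4.93, 4.13 and 3.91 CPM with A8, and 2.98, 3.83 and 4.79 CPM with A8 and ISRIB. Both groups with A8 lay below both groups without it, and the interaction was -0.24 (95% interval -0.71 to 0.24), from A8 effects of -1.13 without and -1.37 with ISRIB. ARRDC4, a related arrestin, had -0.14 (95% interval -0.53 to 0.24), while ARRDC2 had 0.38 (SE 0.17); with the GC trend removed these were -0.04 and 0.18. These intervals do not show that the effects were equal.

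The other lists held few members at an unadjusted p under 0.05, where 3.44% of all genes were lower and 5.04% higher. Among 15 NRF2 targets these were SRXN1, sulfiredoxin, at 0.36 (SE 0.14), and GCLM, a subunit of glutathione synthesis, at -0.25 (SE 0.12), while HMOX1, haem oxygenase, had 0.13 (SE 0.12). Among 17 sterol synthesis genes MVD and INSIG1 had 0.36 (SE 0.09) and 0.24 (SE 0.10). YME1L1, a mitochondrial protease, had -0.30 (SE 0.10) and was the single one of 12 in its list. Among 25 ribosomal protein genes RPL27 alone passed, at 0.40 (SE 0.10), and the list median was -0.02. The cell cycle list had a median of -0.07 and 3 of 20 members past the threshold, among them PCNA, the replication clamp, at -0.29 (SE 0.10) and E2F1 at 0.25 (SE 0.09). The p53, NF-kB and respiratory chain lists, with 14, 8 and 21 members tested, had 0 members past that threshold and medians of 0.06, 0.02 and -0.003, and of all these lists 0 members were called by edgeR's adjusted test, while the DESeq2 Wald test called MVD and RPL27. With the GC trend removed MVD stood at 0.17, E2F1 at 0.09, GCLM at -0.15 and YME1L1 at -0.18, and the cell cycle list had 0 members past that threshold.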

How the data were processed

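Polyadenylated RNA of HEK293T cells in 4 treatment groups was sequenced as strand-specific dUTP libraries on a DNBSEQ instrument, per the labels' protocols. The authors deposited raw counts for 27671 gene symbols in 11 libraries. The submitters' processing notes name the build GRCh37 and the tools DESeq and DESeq2. For the aligner, counter, strand setting and annotation, the information is not given in the sources used here. Replicates are biological per the series' design text. The 2 columns of vehicle with ISRIB carry numbers that differ from the titles, so they are called a and b.

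Counts were fitted with edgeR 4.0.16 in R 4.3.3 (TMM, filterByExpr by group, which kept 15591 genes, and glmQLFit and glmQLFTest with 4 group means and no block), checked on simulated data. The SE was derived from the F statistic, and p-values were Benjamini-Hochberg adjusted over all genes. In 67.2% of genes the 95% interval was narrower than 0.5 to each side, and limits given for a count of 0 cover counting error only. Replicates differed by more than sampling noise (chi-square per degree of freedom 6.33 to 30.5). GC content was the median over a symbol's GENCODE transcripts (GRCh38), matched for 21797 symbols, and served for no coordinates.

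The genes named were the called genes, the genes of smallest p up to 12 in each direction (mean log2 CPM of 2 or more), a fixed panel, and 2 genes of each list; others are marked. The comparison, the panel and the lists were chosen with earlier results of these data known. Alternatives were other scalings (DESeq2 size factors, upper quartile), DESeq2 1.42.0, limma 3.58.1 with voom, a robust fit, other filters on low counts, a replicate block, each library left out, a minimum absolute log2 of 1, removal of the GC trend and the linear CPM scale. Summing HSPA1A and HSPA1B was added after seeing the data. The authors' deposited comparison tables were not used here.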

Additional observations from a re-analysis of the deposited data

Results flagged for a closer look

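The test of the difference itself set 4 genes apart, with A8 effects that differ between cells with and without ISRIB. PSAT1 had an interaction of -0.62 and SLC6A9 one of -0.95, with the A8 effect near 0 under ISRIB in both. HSPA1A had an interaction of 0.63 and HSPA1B one of 0.64, and as near-identical copies they count as 1 observation. The GC content of the transcripts was 44.1% for PSAT1, 60.9% for SLC6A9, 59.3% for HSPA1A and 58.7% for HSPA1B. No group had 4 or more libraries, so single libraries were not screened as outliers.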

How the results depend on the processing

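The 4 calls depended on the processing, while the signs of their values did not in any setting run. Against 2 genes lower and 2 higher, the DESeq2 Wald test called 8 lower and 28 higher, and all 8 lower genes were members of the stress response lists. With no filter on low counts edgeR called 8 and 18, with at least 50 counts in 2 libraries 1 and 2, and limma-voom called 1 and 2. With the GC trend removed edgeR called 1 lower and 0 higher, with 718 genes in place of 1322 at an unadjusted p under 0.05 (337 lower and 381 higher). A minimum absolute log2 of 1 left 0 and 0. With the replicate number as a block, edgeR called 0 lower and 0 higher under both ways of numbering the vehicle with ISRIB libraries, with 1141 and 1068 genes at an unadjusted p under 0.05. Libraries with the same number did not deviate together (r from -0.44 to 0.44 over 9 pairs, 2 of them over 0.1), so the numbers are not taken to pair the samples. With each library left out, 0 to 3 genes were called lower and 0 to 3 higher, and 758 to 1606 passed an unadjusted p under 0.05; without a library of vehicle with ISRIB the lone one is assumed to vary like the other groups. The lowest of these counts, 758, came without library b of that group. The cause of these differences was not tested.

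Some values changed sign. NUPR1 went from 0.08 to -0.046 and -0.062 with the replicate block, to -0.058 with the GC trend removed, to -1.05 CPM on the linear scale, and to between -0.23 and 0.44 with a library left out. IFIT1 went from -0.01 to 0.0018 with upper-quartile scaling and 0.0020 with the higher filter, to 0.019 and 0.022 with the block, to 0.11 with the GC trend removed, and to between -0.13 and 0.17 with a library left out. With the GC trend removed HSPA5 went to 0.019, HMOX1 to -0.0029, PPP1R15A to -0.0093 and JUND, from 0.30, to -0.0048. With a library left out PPP1R15A ran from -0.0051 (without the third library of A8 with ISRIB) to 0.20, and EIF2B5 from -0.00077 (without the first vehicle library) to 0.073. Of 1635 values of single genes under the alternatives, 1534 kept their sign and, where a test was run, their side of the threshold. Another 44 lost and 32 gained a call, and 25 changed sign. The values in CPM carried no adjusted p. Only genes called in the main fit could lose a call, and most of the 1534 values belong to other genes. Apart from the fits with a library left out, PSAT1, HSPA1A and HSPA1B were called in 7 of 10 settings with a test and SLC6A9 in 6. The medians of the stress response and heat shock lists moved by less than the median SE of their members, which is an SE of single genes and not of a median. The heat shock median, near 0, ran from -0.08 to 0.06 with a library left out. It moved furthest with the GC trend removed, to 0.10, with 3 of 17 members below 0. The 2 libraries of vehicle with ISRIB limit every interaction.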

Other observations

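NBL1, a secreted BMP antagonist, shared its reads with the readthrough symbol MINOS1-NBL1 to a degree that differed between libraries. NBL1 had 0 counts in 3 libraries, both of vehicle with ISRIB and the third of A8 with ISRIB, and 479 to 652 counts in the other libraries. MINOS1-NBL1 had 603, 605 and 649 counts in those 3 libraries and 128 to 172 in the rest. The sum of both symbols ran from 603 to 824 counts over all 11 libraries. The fitted interaction of NBL1, 11.56 (SE 2.56), therefore rests on counts of 0 and is no measure of its size. In all, 8 genes had at most 3 counts in some libraries and at least 100 in all others, in 8 different sets of libraries, so no set of libraries recurred.

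Across all tested genes the A8 effects without and with ISRIB, which share no library, had a Pearson r of 0.12, and across the 65 members of the stress response lists one of 0.54. Both are across genes rather than independent samples, and the list was chosen with earlier results of these libraries known.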
